A study of Mus musculus with 6 samples.

Results

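The mouse 2′-5′-oligoadenylate synthetase family was followed in fibroblasts undergoing reprogramming, with or without activated AKT. It was followed through 8 genes chosen by name, *Oas1a*, *Oas1b*, *Oas1c*, *Oas1g*, *Oas2*, *Oas3*, *Oasl1* and *Oasl2*, among the 54331 genes of the deposited table. No measured value entered the naming rule, although results of these data were known when the family was picked. All 8 genes were found in the table by their Ensembl identifiers, and all 8 reached the mean of 1 TPM (transcripts scaled to the same total in each library) that a gene needed to be tested. *Oas3* and *Oasl1* averaged under 1 TPM in the OSKA − 4OHT group, so these 2 genes passed only through their level in the OSKA + 4OHT group.

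The cells were mouse embryonic fibroblasts (MEFs) carrying an Oct4-EGFP transgene, taken from several male E13.5 embryos (the number is the embryonic day) that were pooled, on a mixed C57BL/6, DBA/2 and ICR background. In both groups the MEFs had received retroviruses for Oct4, Sox2, Klf4 and AKT-MER, a membrane-directed AKT fused to a modified estrogen receptor that is active in the presence of 4-hydroxytamoxifen (4OHT). From 3 dpi (days after infection), 3 wells of a plate were given 1 µM 4OHT (OSKA + 4OHT group) and the other 3 were given ethanol as the vehicle (OSKA − 4OHT group), and RNA of whole wells was taken at 10 dpi without sorting the GFP-positive cells. Where 3 values of a group are given, they are those of replicates 1, 2 and 3 in this order. The wells came from pooled embryos and shared the transduction, so p-values here measure the spread between wells. No wells with 4OHT but without AKT-MER were among these libraries, so within them the drug and the activation of AKT cannot be told apart. The paper did include such wells in colony counts and in a microarray comparison on an earlier day, and describes the effects of 4OHT there as limited. Those measurements were not used here.

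OAS enzymes are sensors of double-stranded RNA. When they bind it they link ATP into short oligoadenylates with 2′-5′ bonds, called 2-5A, which act as a messenger of the antiviral response inside the cell. Genes of this kind are standard members of the interferon response, which acts on promoters through interferon-stimulated response elements (ISRE), and in fibroblasts their basal level depends on tonic type I interferon signalling. Some rodent copies have lost the synthetase activity, and the OASL proteins carry ubiquitin-like repeats behind the OAS domain.

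The family lies in 2 places on chromosome 5 (GRCm38, GENCODE M21). *Oasl2* (chr5:114896936-114912234, plus strand) and *Oasl1* (chr5:114923240-114937915, plus strand) form a pair that spans 40980 bases. The other members belong to a cluster of 10 Oas genes over 191320 bases, in the order *Oas2* (chr5:120730333-120749853, minus strand), *Oas3* (chr5:120753098-120777661, minus), *Oas1c* (chr5:120800194-120812514, minus), *Oas1b* (chr5:120812635-120824163, plus), *Oas1g* (chr5:120876142-120887613, minus) and *Oas1a* (chr5:120896256-120907521, minus). *Oas1e*, *Oas1f*, *Oas1h* and *Oas1d* are the remaining genes of the cluster.

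Promoter windows from RefSeq (GRCm38.p6), which run from 250 bases before to 50 bases after a gene's start, were available for 6 of the 8 members. They were searched on both strands, with overlapping matches counted, for the core letters of the ISRE, GAAA and a further GAAA with any 2 bases between them. These letters were found in 4 of the 6 member windows, those of *Oas1a*, *Oas1g*, *Oas1c* and *Oas3*, against 1131 of 32851 windows over all genes (3.44%). The matching stretches of these 4 members are shown because the searched letters lie in them upstream of the starts. Each is written 5′ to 3′ on the strand of its gene, with the matches in capitals, and ends before the gene's start.
Oas1a, chr5:120907526-120907560, minus strand: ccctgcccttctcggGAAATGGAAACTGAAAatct
Oas1g, chr5:120887614-120887646, minus strand: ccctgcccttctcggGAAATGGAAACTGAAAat
Oas1c, chr5:120812598-120812643, minus strand: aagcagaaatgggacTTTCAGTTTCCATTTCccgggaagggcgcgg
Oas3, chr5:120777710-120777749, minus strand: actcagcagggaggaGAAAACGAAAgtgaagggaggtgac

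In *Oas1a* and *Oas1g* the same run of capitals, made of 2 overlapping matches, begins 20 and 18 bases before the start. Their whole windows were identical at 85.3% of the 306 aligned positions. In *Oas1c* the matches read on the opposite strand, 99 bases or more from the *Oas1c* start. *Oas1b* starts on the other side, head to head with *Oas1c* and with 120 bases between the starts, so the same run ends 7 bases from the *Oas1b* start. The single match of *Oas3* begins 75 bases before its start. A longer form of these letters, with CT directly after the further GAAA, was found in the windows of *Oas1a*, *Oas1g* and *Oas1c*, against 0.271% of all windows. The letters TTCNNNGAA, the core of the gamma-activated site, were found only in that of *Oas1a* among the 6 members, against 8.30% of all windows.

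The windows of *Oasl1* and *Oasl2* held none of these letters, which says only that these letters are not in these windows. The last 100 bases before their starts are shown for comparison with the cluster, since *Oasl2* was the most abundant member. The 2 windows were identical at 42.4% of aligned positions.
Oasl1, chr5:114923140-114923239, plus strand: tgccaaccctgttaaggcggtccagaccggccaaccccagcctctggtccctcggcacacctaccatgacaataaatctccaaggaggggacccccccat
Oasl2, chr5:114896834-114896933, plus strand: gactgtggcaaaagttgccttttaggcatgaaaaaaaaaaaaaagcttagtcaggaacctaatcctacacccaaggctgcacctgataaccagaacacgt
A match is a description of the sequence and shows neither a bound factor nor a cause.

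The authors' values are TPM from Salmon, which do not keep the read number. An approximate depth was read from the steps in the low values, and with OSKA − 4OHT replicate 2 set to 1 the other OSKA − 4OHT libraries were at 0.497 and 0.547, whereas the range of the OSKA + 4OHT libraries was 0.784 to 0.909. The shallowest 2 libraries were thus both from the OSKA − 4OHT group, as was the deepest, and the OSKA + 4OHT range lay within that of the OSKA − 4OHT group. The part of depth in the results was not tested. Fibroblast markers were present in every library, with a summed level of 5966 to 7782 TPM in the OSKA − 4OHT group and 3944 to 5195 TPM in the OSKA + 4OHT group. Of the 7, 1 (*Pdgfrb*) was called lower, beside 1.37% of all tested genes. *Col1a2* had an adjusted p-value of 0.0285 by limma-trend but a log2 fold change of -0.88, not beyond the -1 that a call needed. *Vim*, *Col1a1* and *Col1a2* made up most of the sum, and *Thy1* (179 and 293 TPM on average) and *Dcn* (138 and 185 TPM) were higher in each OSKA + 4OHT well, without a call. Markers of macrophages and other blood cells summed to 126.9 to 156.3 TPM in the OSKA − 4OHT group and to 83.2 to 96.9 TPM in the OSKA + 4OHT group, and 0 of the 8 were called. *Lyz2* was at 95.2 ± 5.63 and 51.8 ± 7.77 TPM (SD, n = 3), with an adjusted p-value of 0.0299 by limma-trend. Its log2 fold change of -0.88 was not beyond -1, and 3 of the 8 had log2 fold changes above 0. Without *Lyz2* the sums overlapped, at 45.5, 36.9 and 62.0 TPM in the OSKA − 4OHT wells and 48.7, 36.7 and 30.7 TPM in the OSKA + 4OHT wells. *Ptprc*, which marks all leukocytes, was between 0.435 and 1.67 TPM, and *Aif1* was listed at 0 in 3 of the 6 libraries. Of the 4 endothelial markers only *Pecam1* and *Tek* were tested and neither was called. *Tek* was nonetheless higher in each OSKA + 4OHT well, at 12.8, 14.5 and 15.7 TPM against 23.2, 21.2 and 21.4 TPM. Pluripotency markers summed to 2.87 to 3.69 TPM in the OSKA − 4OHT group and to 35.9 to 52.3 TPM in the OSKA + 4OHT group. Of the 6, 4 were called higher, beside 2.87% of all tested genes. Of these 4, *Nanog*, *Zfp42* and *Dppa5a* averaged under 1 TPM in the OSKA − 4OHT group and passed only through the OSKA + 4OHT group. The part of these marker differences in the results was not tested. In RNA of whole wells, fewer cells of a type and less RNA per cell cannot be told apart.

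The family as a whole was more abundant in the OSKA + 4OHT group. Summed over the 8 genes, the level was 43.7, 46.3 and 66.9 TPM in the OSKA − 4OHT wells, and 337.4, 461.2 and 370.2 TPM in the OSKA + 4OHT wells. The lowest OSKA + 4OHT library was thus well above the highest OSKA − 4OHT library, and the group means of 52.3 ± 12.7 and 389.6 ± 64.1 TPM (SD, n = 3) differed 7.45-fold. The largest part of the sum was *Oasl2*, and without it the ratio of the means was 5.04.

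**Figure D1:**
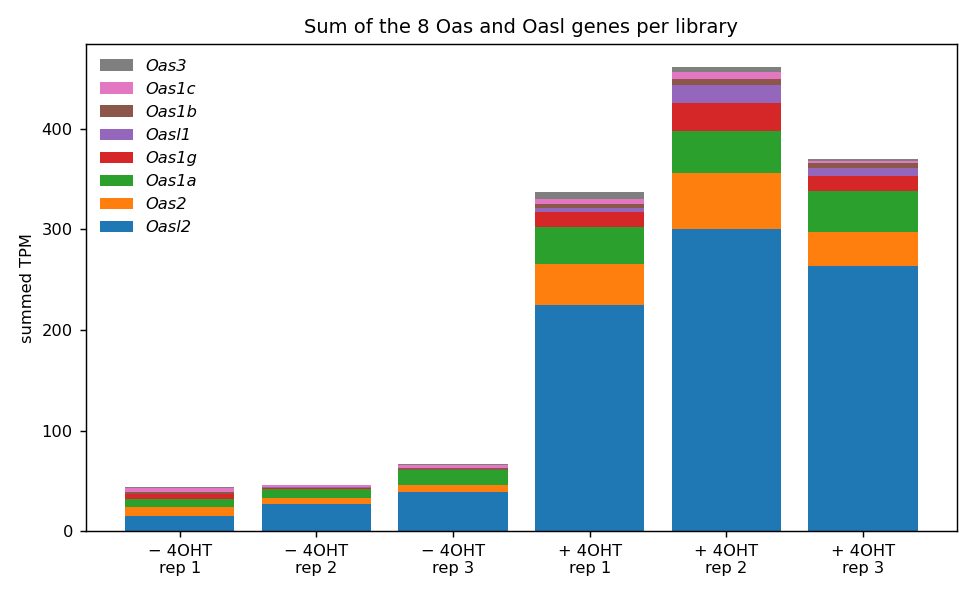
Summed level of the 8 Oas and Oasl genes in each library, in TPM on a linear axis, with each gene as a coloured part of the bar. The 3 OSKA − 4OHT bars end between 43.7 and 66.9 TPM and the 3 OSKA + 4OHT bars between 337.4 and 461.2 TPM, with *Oasl2* as the largest part of every bar.

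Gene by gene, limma-trend was applied to log2(TPM + 0.5) of 15382 genes, with Benjamini-Hochberg adjustment over all of them. A call needed an adjusted p-value under 0.05 and a log2 fold change above 1 or below -1. Called higher in the OSKA + 4OHT group were 3 of the 8 members, *Oas1a*, *Oas2* and *Oasl2*, where 2.87% of all tested genes were called higher. Called lower were 0 members, where 1.37% of all tested genes were called lower. At an unadjusted p-value under 0.05 the numbers were 7 higher and 0 lower, beside 14.1% higher and 7.18% lower over all tested genes. These 7 include *Oas3* and *Oasl1*. Among the 6 members that averaged at least 1 TPM in the OSKA − 4OHT group too, the number was 5, of which 3 were called. In 7 of the 8 members every OSKA + 4OHT library was above every OSKA − 4OHT library, which held for 18.1% of all tested genes, and *Oas1c* was the exception. Without *Oas3* and *Oasl1* it was 5 of 6. Only *Oasl2* was called when OSKA + 4OHT replicate 1 was left out, and likewise when the replicate number was fitted as a block. With quantile normalization, 335 genes over all were called higher and 296 lower, in place of 441 and 210, and the called members were the same 3. The median log2 fold change of the members, *Oas3* and *Oasl1* included, was 2.27, with a range from 0.74 to 3.60, beside a median of 0.14 over all tested genes. On this scale the change of genes near 0 is understated.

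**Figure D2:**
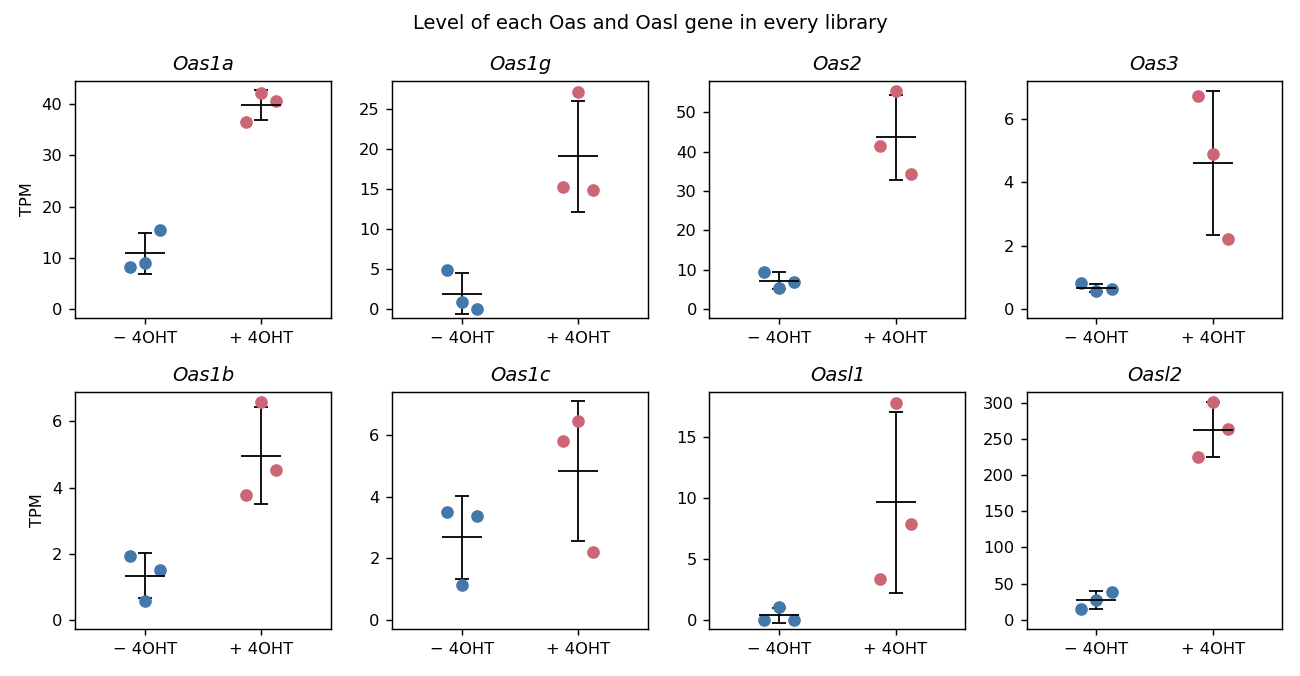
Level of each member in every library, in TPM on linear axes that differ between panels. Points are wells, in the order of replicates 1, 2 and 3, long bars are group means and short bars are 1 SD. Only in *Oas1c* does a point of the OSKA + 4OHT group, at 2.21 TPM, fall among those of the OSKA − 4OHT group.

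Among the genes for classical synthetases, *Oas1a* encodes the OAS1 enzyme with full catalytic activity. Its level was 8.21, 8.99 and 15.5 TPM in the OSKA − 4OHT wells, and 36.4, 42.1 and 40.7 TPM in the OSKA + 4OHT wells. The OSKA + 4OHT wells lay close together and the groups did not overlap. The means of 10.9 ± 4.01 and 39.7 ± 2.94 TPM (SD, n = 3) differed 3.65-fold, and the log2 fold change was 1.87 (SE 0.267, adjusted p = 0.0162, limma-trend). With 1 library left out at a time, the adjusted p-value was under 0.05 in 2 of 6 fits. It was 0.0623 without OSKA − 4OHT replicate 2, and 0.0697, 0.0764 and 0.0617 without OSKA + 4OHT replicates 1, 2 and 3.

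*Oas1g* is the near copy of *Oas1a* in the cluster and also encodes an active synthetase. It was at 4.88 and 0.897 TPM and listed at 0 in the OSKA − 4OHT wells. Its OSKA + 4OHT levels were 15.3, 27.1 and 14.9 TPM. The groups did not overlap, but the OSKA − 4OHT wells spread widely near the bottom of the scale. The log2 fold change was 3.60 (SE 0.843, 95% confidence interval 1.57 to 5.63) and the adjusted p-value was 0.0641 by limma-trend, so the gene was not called. The OSKA − 4OHT values stood for about 7.09, 2.62 and 0 reads, and the fitted fold change depends on the pseudocount (2.58 with 2, 4.54 with 0.1). With 1 library left out, the adjusted p-value by limma-trend was under 0.05 in 1 of 6 fits. It was 0.0274 without OSKA − 4OHT replicate 1, the well with the most *Oas1g* in its group. In the other fits it was 0.0961 to 0.199.

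The values of these 2 genes are uncertain as separate numbers. Of the 50-base windows of the *Oas1a* transcript, 57.6% also occur in another gene, *Oas1g*, and 54.7% of those of *Oas1g* occur in other Oas genes, nearly all in *Oas1a*, so reads of 50 bases from these windows could be assigned only by estimation. The transcripts were identical at 90.6% of aligned positions. The sum of the 2 genes is not touched by that split. It was 13.1, 9.89 and 15.5 TPM in the OSKA − 4OHT wells, and 51.7, 69.2 and 55.6 TPM in the OSKA + 4OHT wells. As 1 row in the same fit the sum had a log2 fold change of 2.17 (SE 0.223, adjusted p = 0.00622, limma-trend). Its adjusted p-value stayed between 0.0163 and 0.0367 when 1 library was left out, so it did not rest on a single well. This sum was added after the values had been seen.

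*Oas2* encodes the middle-sized OAS, which is made of repeated OAS units and attached to membranes by a lipid. Its level was 9.51, 5.38 and 6.90 TPM in the OSKA − 4OHT wells, and 41.5, 55.5 and 34.2 TPM in the OSKA + 4OHT wells. All 3 OSKA + 4OHT wells were far above the OSKA − 4OHT wells. The means of 7.26 ± 2.09 and 43.7 ± 10.8 TPM (SD, n = 3) differed 6.02-fold, with a log2 fold change of 2.52 (SE 0.281, adjusted p = 0.00821, limma-trend). The adjusted p-value was 0.0502 when OSKA + 4OHT replicate 1 was left out, and under 0.05 in the other 5 fits of this kind. None of the 50-base windows of *Oas2* occurs in another gene.

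*Oas3* encodes the largest OAS, which prefers long double-stranded RNA and is regarded as the main source of 2-5A in infected cells. It was at 0.812, 0.571 and 0.623 TPM in the OSKA − 4OHT wells. In the OSKA + 4OHT wells it was at 6.73, 4.90 and 2.22 TPM. The OSKA + 4OHT wells spread over a wide range but stayed above all OSKA − 4OHT wells. The log2 fold change was 2.03 (SE 0.493, 95% confidence interval 0.84 to 3.21) with an adjusted p-value of 0.0700 by limma-trend, and the gene was not called. By the approximate depth, the OSKA − 4OHT values of *Oas3* stood for about 2.58 to 4.31 reads a library, and the OSKA + 4OHT values for about 13.2 to 43.1.

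*Oas1b* and *Oas1c* are OAS1 copies without known synthetase activity. *Oas1b* is the mouse gene of resistance to flaviviruses, and the annotation marks it as a polymorphic pseudogene; common laboratory strains carry a truncated allele. Its level was 1.92, 0.578 and 1.51 TPM in the OSKA − 4OHT wells, and 3.76, 6.60 and 4.53 TPM in the OSKA + 4OHT wells. The groups did not overlap, and the log2 fold change was 1.62 (SE 0.446, 95% confidence interval 0.54 to 2.69) with an adjusted p-value of 0.0973 by limma-trend, which was not a call. These levels stood for about 1.55 to 2.56 reads a library in the OSKA − 4OHT group and about 8.55 to 16.1 in the OSKA + 4OHT group. Which allele the reads came from was not analysed here.

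*Oas1c* was the member with the smallest fold change. It was at 3.51, 1.13 and 3.38 TPM in the OSKA − 4OHT wells. The OSKA + 4OHT values were 5.81, 6.44 and 2.21 TPM. OSKA + 4OHT replicate 3 was below 2 of the OSKA − 4OHT wells. The log2 fold change was 0.74 with a 95% confidence interval from -0.58 to 2.06 and an adjusted p-value of 0.503 by limma-trend. With 1 library left out, the estimate ranged from 0.318 (without OSKA − 4OHT replicate 2) to 1.17 (without OSKA + 4OHT replicate 3). These wells thus set neither a direction nor an absence of change. The OSKA − 4OHT values stood for about 6.02, 3.88 and 6.38 reads, and 10.7% of the 50-base windows of *Oas1c* also occur in other Oas genes, mostly *Oas1e*. *Oas1b* and *Oas1c*, with starts 120 bases apart, were thus both at a few TPM, and the difference between their fold changes was not tested.

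Of the OASL genes, *Oasl2* encodes an active synthetase with ubiquitin-like repeats, and *Oasl1* encodes a protein without synthetase activity that holds back the translation of *Irf7* mRNA. *Oasl2* was at 14.9, 27.6 and 39.0 TPM in the OSKA − 4OHT wells. The OSKA + 4OHT wells were at 224.6, 300.7 and 263.6 TPM. Every OSKA + 4OHT well was several times above the highest OSKA − 4OHT well. The means of 27.2 ± 12 and 263 ± 38.1 TPM (SD, n = 3) differed 9.68-fold, with a log2 fold change of 3.34 (SE 0.347, adjusted p = 0.00646, limma-trend). *Oasl2* was the only single member called under all 15 alternatives of scaling, filter, pseudocount, variance model, block or library left out.

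*Oasl1* was listed at 0 in OSKA − 4OHT replicates 1 and 3 and was at 1.08 TPM in replicate 2. In the OSKA + 4OHT wells it was at 3.33, 17.9 and 7.85 TPM. The groups did not overlap, and the OSKA + 4OHT wells differed from one another more than for any other member in relation to their mean. The adjusted p-value was 0.0530 by limma-trend, just above the threshold. The OSKA − 4OHT values stood for about 3.54 reads in replicate 2 and none in the others, so no ratio of means is given, and the fitted log2 fold change of 3.51 depends on the pseudocount (2.13 with 2, 5.11 with 0.1). *Oasl1* and *Oasl2* transcripts were identical at 45.3% of aligned positions and shared no 50-base window with each other or with any other gene.

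**Figure D3:**
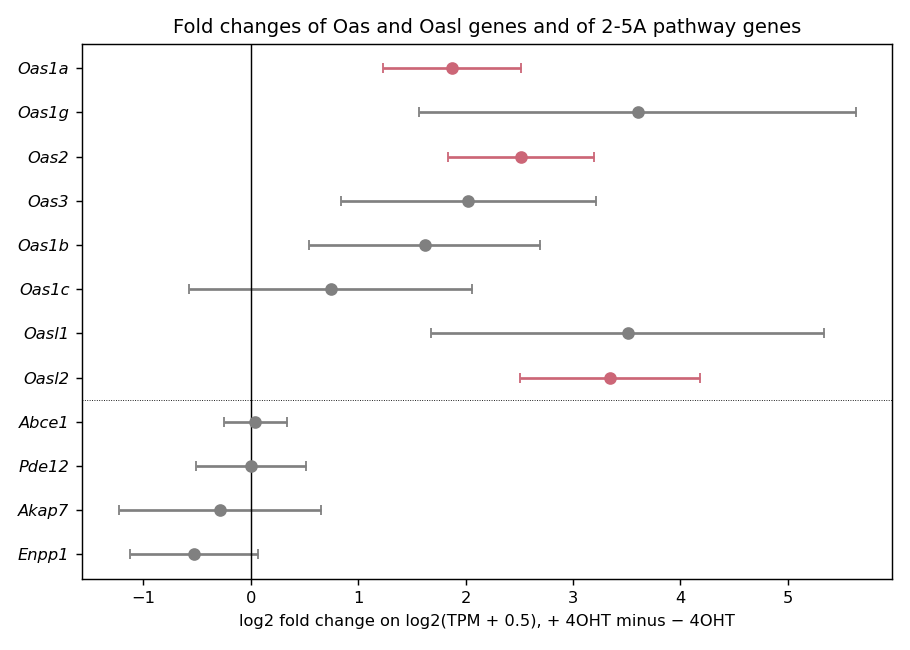
Log2 fold changes (OSKA + 4OHT against OSKA − 4OHT, on log2(TPM + 0.5)) of the 8 members above the dotted line and of the 4 genes of the 2-5A pathway under it. Points are estimates from limma-trend, bars are 95% confidence intervals and red marks the called genes. The intervals of 7 members lie above 0, whereas those of *Oas1c* and of all 4 pathway genes include 0.

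By level, the order in the OSKA + 4OHT group began with *Oasl2*, followed by *Oas2*, *Oas1a* and *Oas1g*, and then *Oasl1*, *Oas1b*, *Oas1c* and *Oas3*, on the TPM scale, which is per transcript length. *Oasl2* was above *Oas2* in every comparison of wells. *Oas1a* was listed above *Oas1g*, within the limit that their reads can be split only by estimation. *Oas2* and *Oas1a* overlapped, and so did each neighbouring pair from *Oas1g* down, so their order is not settled by these wells. *Oasl2* made up 34.1%, 59.7% and 58.3% of the family sum in the OSKA − 4OHT wells, and 66.6%, 65.2% and 71.2% in the OSKA + 4OHT wells. *Oas1a* and *Oas1g* together made up 29.9%, 21.4% and 23.2% and then 15.3%, 15.0% and 15.0%. The share of *Oasl2* was thus higher, and that of this pair lower, in each OSKA + 4OHT well than in any OSKA − 4OHT well.

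The other genes of the cluster were near the bottom of the scale and were not tested. *Oas1d* and *Oas1e* were listed at 0 in all 6 libraries. *Oas1f* was listed at 0 in 5 libraries and was at 0.516 TPM in OSKA + 4OHT replicate 3. *Oas1h* was listed at 0 in OSKA − 4OHT replicates 1 and 3 and was at 0.398 TPM in replicate 2, and its OSKA + 4OHT wells were at 0.891, 1.57 and 2.18 TPM. Its OSKA + 4OHT wells were all above its OSKA − 4OHT wells, at about 1.85 to 4.19 reads each. Detectable members therefore stood between genes listed at 0 within the cluster.

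**Figure D4:**
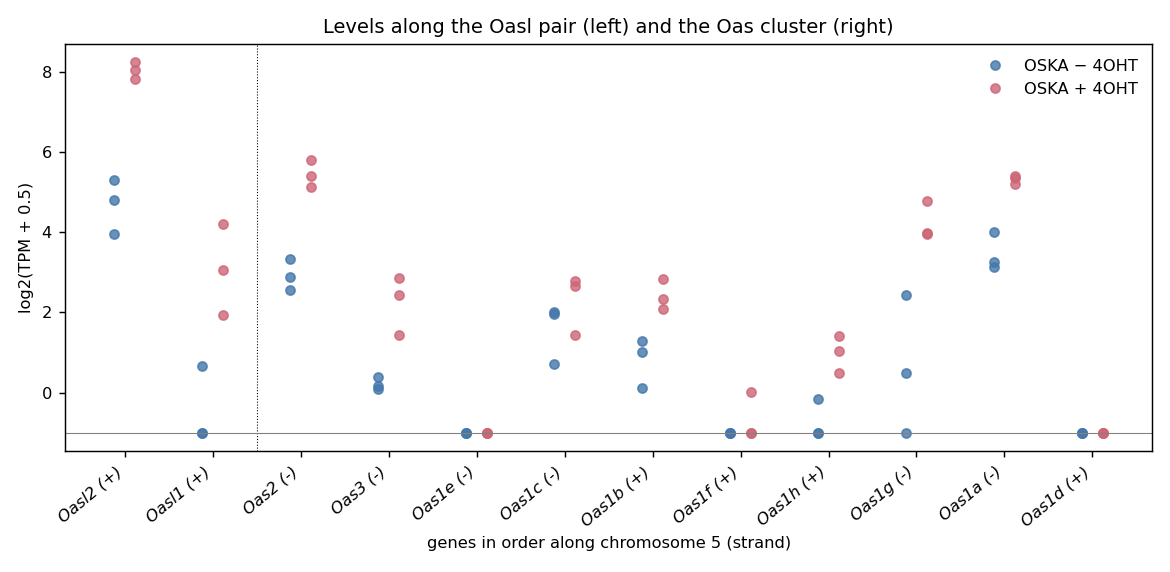
Levels on the log2(TPM + 0.5) scale of the Oasl pair and of the 10 genes of the Oas cluster, in their order along chromosome 5 and not to scale, with the strand in brackets. Each point is a well, and the grey line marks a value of 0. *Oas1d* and *Oas1e* lie on the grey line in all 6 libraries.

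Genes that flank these places were listed at or near 0, or were not called. Next to the Oasl pair, *2210016L21Rik* was at 13.4, 14.4 and 17.8 TPM in the OSKA − 4OHT wells. In the OSKA + 4OHT wells it was at 12.1, 20.5 and 8.94 TPM, with a log2 fold change of -0.20 (adjusted p = 0.756, limma-trend). *Gm9936* was listed at 0 in all 6 libraries. Beside the Oas cluster, *Ptpn11*, which encodes the phosphatase SHP2, was at 80.8 ± 11.5 and 61.2 ± 7.21 TPM (SD, n = 3) and had a log2 fold change of -0.39 (adjusted p = 0.251, limma-trend). All 3 of its OSKA + 4OHT wells were below the OSKA − 4OHT wells. *Dtx1* was at 0.303 TPM in OSKA − 4OHT replicate 2 and listed at 0 in replicates 1 and 3, and its OSKA + 4OHT wells were at 4.43, 1.23 and 0.97 TPM. These groups did not overlap either, with a log2 fold change of 1.99 and an adjusted p-value of 0.202 by limma-trend, and *Dtx1* passed the filter only through the OSKA + 4OHT group.

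Genes that act on 2-5A or on the response to it did not pass the test in either direction. Of the 4 genes of this list, *Abce1*, *Pde12*, *Akap7* and *Enpp1*, 0 were called higher and 0 lower by limma-trend, 0 had an unadjusted p-value under 0.05, and in all 4 the groups overlapped. Over all tested genes 2.87% were called higher and 1.37% lower, and the groups overlapped in 11051 of 15382. These counts thus do not set the list apart from most genes. Its median log2 fold change was -0.14. *Abce1*, which encodes a factor of ribosome recycling, was at 72.2 ± 3.61 and 74.3 ± 1.18 TPM (SD, n = 3), with a 95% confidence interval of the log2 fold change from -0.25 to 0.33. *Pde12*, a phosphodiesterase that degrades 2-5A, was at 6.31 ± 0.154 and 6.35 ± 0.743 TPM, with an interval from -0.51 to 0.52. These were the narrowest intervals of the list. *Akap7*, whose protein has a related phosphodiesterase domain, was at 41.4 ± 17.4 and 33.3 ± 12.4 TPM, and *Enpp1*, a pyrophosphatase at the cell surface that can also cleave 2-5A, at 17.7 ± 4.33 and 12 ± 2.06 TPM.

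Other enzymes and sensors that bind double-stranded RNA were examined beside the family. Of 6 such genes, 4 were called higher and 0 lower by limma-trend, beside 2.87% higher and 1.37% lower over all tested genes. *Zbp1*, a sensor of left-handed RNA and DNA, was at 25.7 ± 2.49 and 141 ± 19.5 TPM (SD, n = 3), with a log2 fold change of 2.43 and an adjusted p-value of 0.00342 by limma-trend. *Dhx58* (log2 fold change 2.14), *Ifih1* (1.34) and *Ddx58* (1.14), which encode LGP2, MDA5 and RIG-I, were the other called genes. *Eif2ak2*, which encodes PKR, had an adjusted p-value of 0.0389 by limma-trend but a log2 fold change of 0.95, under the threshold of 1. *Adar*, which edits adenosine in double-stranded RNA, was at 16.7 ± 6.34 and 35.1 ± 12.8 TPM with overlapping groups and was not called. The median log2 fold change of the list was 1.24, beside 2.27 for the OAS members. With any 1 library left out, 1 or 2 genes of the list were called, and *Zbp1* was among them each time.

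Of 13 genes for interferon signalling towards OAS promoters, 12 were tested, 1 was called higher and 0 lower by limma-trend. Over all tested genes 2.87% were called higher and 1.37% lower. The called gene was *Stat2*, at 13.2, 10.3 and 21.9 TPM in the OSKA − 4OHT wells and 44.6, 68.8 and 62.9 TPM in the OSKA + 4OHT wells. These groups did not overlap, and the log2 fold change was 1.97 (SE 0.319, adjusted p = 0.0239, limma-trend). *Irf9*, a DNA-binding factor of the type I interferon response, was at 27.9 ± 11.2 and 51.5 ± 1.76 TPM, and *Irf7*, which amplifies type I interferon, at 14.6 ± 13.8 and 67.6 ± 30.2 TPM (SD, n = 3). Neither was called, although their groups did not overlap. The same held for *Irf3*, at 14.7 ± 3.19 and 25.5 ± 9.11 TPM, with an adjusted p-value of 0.223 by limma-trend. *Irf1* was at 10.9 ± 3.89 and 20.5 ± 13.8 TPM with overlapping groups and was not called. With 1 library left out, *Stat2* and *Irf9* were called without OSKA − 4OHT replicate 3, *Irf7* without OSKA − 4OHT replicate 2, and 0 genes of the list in the other 4 fits.

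The receptors and kinases of the list were not called in either direction. *Ifnb1*, which encodes interferon beta, was listed at 0 in all 6 libraries. Its gene spans only 750 bases, so a low level could yield no read, and the listed 0 does not show absence. The type I receptor genes *Ifnar1* and *Ifnar2* had log2 fold changes of -0.09 and 0.46. *Ifnar2* was at 32.4 ± 4.17 and 44.8 ± 4.85 TPM (SD, n = 3) and higher in each OSKA + 4OHT well, with an adjusted p-value of 0.186 by limma-trend. *Jak2* was at 30.5 ± 2.07 and 19.0 ± 1.07 TPM (SD, n = 3), every OSKA + 4OHT well being below the OSKA − 4OHT wells, with an adjusted p-value of 0.0624 by limma-trend. *Jak1* and *Ifngr1* were also lower in each OSKA + 4OHT well, with adjusted p-values of 0.292 and 0.418 by limma-trend. *Ifngr2* and *Tyk2* overlapped between the groups, with log2 fold changes of -0.08 and 0.02.

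Among 10 well known interferon-stimulated genes, 9 were called higher by limma-trend and 0 lower, beside 3 of the 8 members. Over all tested genes 2.87% were called higher and 1.37% lower. The median log2 fold change of these 10 genes was 3.07, and their range was from 0.96 for *Ifit2* to 3.90 for *Mx2*. For the members the median was 2.27 and the range was from 0.74 to 3.60. *Mx1*, *Mx2* and *Rsad2*, all 3 called, averaged under 1 TPM in the OSKA − 4OHT group and passed only through the OSKA + 4OHT group. *Ifit3* and *Usp18* had log2 fold changes of 2.94 and 3.01. In all 10, *Mx1*, *Mx2* and *Rsad2* included, every OSKA + 4OHT library was above every OSKA − 4OHT library, which held for 18.1% of all tested genes. *Isg15* was at 23.7 ± 8.92 and 318 ± 66.6 TPM (SD, n = 3), and *Bst2* at 52.9 ± 10.1 and 276 ± 45.5 TPM. *Oasl2*, at 27.2 and then 263 TPM, overlapped with both of these abundant genes in the OSKA + 4OHT group. In the OSKA − 4OHT group *Oasl2* overlapped with *Isg15* but was below *Bst2* in every well. The remaining members were in the range of *Ifit1*, *Ifi44* and *Rsad2*, which averaged 77.7, 17.8 and 15.8 TPM in the OSKA + 4OHT group, or under it. With 1 library left out, 3 to 8 of the 10 were called, the fewest without OSKA + 4OHT replicate 2. Differences between the lists were not tested.

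The tested genes most like the members' mean profile, by Pearson's correlation over the 6 libraries, were *Pde1c* (r = 0.998), *Nt5e* (0.998), *Gpr108* (0.997), *Drp2* (0.997) and *Sord* (0.997). The profile is the mean standardised log2(TPM + 0.5) of the 8 members, *Oas3* and *Oasl1* included, which passed the filter only through the OSKA + 4OHT group. The points are the same 3 wells a group for every gene, so these values are given as a description. *Nt5e* and *Sord* were called higher, whereas *Pde1c*, *Gpr108* and *Drp2* were not (adjusted p = 0.282, 0.135 and 0.0569, limma-trend), and *Pde1c* averaged under 1 TPM in the OSKA − 4OHT group. *Nt5e*, which encodes the ecto-5′-nucleotidase CD73, was at 17.6, 15.1 and 16.8 TPM in the OSKA − 4OHT wells. In the OSKA + 4OHT wells it was at 43.5, 52.6 and 39.4 TPM. Like the family sum, it was highest in OSKA + 4OHT replicate 2.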

How the data were processed

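Poly(A) RNA of 6 wells was sequenced as 50-bp single-end stranded reads. The authors trimmed the reads with Trim Galore, quantified them with Salmon and deposited 1 TPM value per gene and library. Versions and the annotation release are not given in the sources used here. The deposited table also holds the authors' own comparison (a fold change, an average level, a test score and a p-value), which was not used. Symbols and positions came from GENCODE M21, matched by identifier for 54097 of 54331 genes.

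Genes that averaged 1 TPM or more were tested with limma 3.58.1 in R 4.3.3 (lmFit, eBayes with trend) on log2(TPM + 0.5), without a block, because TPM do not allow the count model of the study. For 3 wells against 3, the smallest 2-sided p-value of an exact permutation test is 0.1, so none was run. By rule, the named genes are all members, the genes of the lists and the 5 tested genes most like the members, except that some markers enter only in sums. The other genes of the cluster belong to a list, and the genes that flank the 2 places were added by position. The members and lists were chosen with earlier results of these data known. Results for some genes are not reported here.

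Approximate reads assume a fragment length of 250 bases and the longest transcript of a gene. Between 37.1% and 41.2% of low values lay within 0.15 of a whole read, against 30% for an even spread. Sequences were searched in Python 3.11.15 with Biopython 1.88, pandas 2.3.3 and numpy 2.4.6. Alternatives were other pseudocounts (0.1, 1 and 2), no filter or one of 5 TPM, TMM scaling, quantile normalization, a replicate block, a robust variance model, and leaving out each library in turn.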

Additional observations from a re-analysis of the deposited data

How the results depend on the processing

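No member's log2 fold change reversed its direction under any alternative. Members called higher (3) became 1 with the replicate number as a block, and ranged from 1 to 4 when 1 library was left out. The lowest came without OSKA + 4OHT replicate 1. The replicate block also left 1 call in both the double-stranded RNA list (4 otherwise) and the interferon-stimulated list (9), 0 in the signalling list (1), and 31 genes higher and 16 lower over all genes (441 and 210). In the deviations of each gene from its group mean, same-numbered wells correlated by 0.0235, 0.0341 and 0.0837, each under 0.1. These were the best matches of OSKA + 4OHT replicates 2 and 3, but replicate 1 correlated best with OSKA − 4OHT replicate 2 (0.0327). The wells were therefore taken to share only a number, although the data do not exclude a weak pairing. Under the block the adjusted p-value was 0.0765 for *Oas1a*, 0.0686 for *Oas2* and 0.0499 for *Oasl2* (limma-trend).

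With 1 library left out, the calls ranged from 1 to 2 in the double-stranded RNA list, 0 to 2 in the signalling list (0 without OSKA − 4OHT replicate 1 or any of the OSKA + 4OHT replicates) and 3 to 8 in the interferon-stimulated list, with 3 without OSKA + 4OHT replicate 2. Over all genes they ranged from 111 to 303 higher and from 63 to 127 lower. The members' median log2 fold change ranged from 2.13 to 2.55, and the ratio of the family sums from 6.76 to 8.66. Scaling moved the median log2 fold change of all genes from 0.14 to 0.059 (TMM) and -0.0047 (quantile), and that of the members to 2.19 and 2.06, with all 8 members above 0. With a filter of 5 TPM the median was 3.34, because only 5 members were left. *Oas1g* was also called with a pseudocount of 2 (adjusted p = 0.0418). The adjusted p-values ranged from 0.0536 to 0.179 for *Oasl1*, 0.0584 to 0.244 for *Oas3*, 0.0950 to 0.287 for *Oas1b* and 0.291 to 0.770 for *Oas1c* over their alternatives (limma-trend). *Oas1g*, *Oas3*, *Oasl1*, *Oas1b* and *Oas1c* stood for few reads in the OSKA − 4OHT libraries, which limits the precision of their values there.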
